A study of Homo sapiens with 12 samples.

Results

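The genes described here are 34 genes of DNA replication and S phase, chosen by name from a table of 26485 gene symbols measured by RNA sequencing. The choice was made with earlier results of these data known. All 34 were in the table and all passed the filter on low counts, among 15206 genes that were tested. The RNA came from RD, a long-established human rhabdomyosarcoma line; this tumour resembles developing skeletal muscle. The cells carried a hairpin, inducible by doxycycline, against NT5E, which encodes the surface enzyme CD73, in 2 constructs titled ish and ish2. Each construct was grown for 96 h with 10 ng/mL doxycycline (Dox), which turns the hairpin on, or without it, so the groups were ish with Dox, ish without Dox, ish2 with Dox and ish2 without Dox, with 3 libraries in each. The labels do not say whether the replicates were separate cultures, so the p-values measure the spread between these libraries, which may be technical. A line with Dox and a control hairpin was not analysed here, so the drug, the hairpin and the loss of NT5E cannot be told apart within either construct. Whether a line is a pool or 1 clone was not stated in the sources used here.

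Gene counts per library ran from 26566603 to 32692207. NT5E, the targeted gene, measured 1.94, 1.23 and 1.54 CPM in ish cells with Dox, against 14.9, 18.0 and 17.3 CPM in ish cells without Dox (CPM, counts scaled to library size). In ish2 it measured 14.5, 15.2 and 14.1 CPM in ish2 cells with Dox, against 24.1, 23.5 and 22.1 CPM in ish2 cells without Dox. NT5E was thus 10.7-fold lower with Dox in ish (adjusted p = 3.31e-25, edgeR) and 1.59-fold lower in ish2 (adjusted p = 4.62e-11), with no overlap between the groups of either. Of 5 muscle markers, MYOD1, MYOG, DES and CHRND were found in every library and MYF5 was at or near 0, and the 7 markers of blood, endothelium and epithelium reached at most 0.554 CPM in any library. In the ish2 group without Dox, replicate 3 was the highest of its 3 libraries for all 34 replication genes, and the highest of all 12 libraries for 32 of them. Where this group was used, the main counts of genes that changed and the medians over the 34 are therefore also given without this library. Counts at a fold threshold for the Dox effect, counts in both constructs and counts and medians by role are given only with it. The same holds for counts of fully separated genes, medians of other sets and most values of single genes. The summed level of the muscle markers was 2339 to 2456 CPM in ish with Dox, against 1109 to 1161 CPM in ish without Dox. In ish2 it was 932.5 to 966.9 CPM with Dox, against 1085 to 1114 CPM without Dox. MYOD1, MYOG, DES and CHRND rose in ish, 3.02-fold, 6.16-fold, 1.76-fold and 1.42-fold. In ish2 MYOD1 and DES rose 1.13-fold and 1.57-fold, while MYOG and CHRND fell 4.73-fold and 1.94-fold. The part of the muscle markers in the results was not tested.

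DNA replication is prepared in G1 phase, when the origin recognition complex, CDC6 and CDT1 load the ring of MCM2 to MCM7 onto DNA. At S phase, kinases and the factors MCM10, CDC45 and GINS turn each ring into a moving helicase, and polymerases, the PCNA clamp and its loader copy the strands while other enzymes supply nucleotides and new chromatin. Many of these genes are transcribed late in G1 by E2F factors, which the retinoblastoma protein holds in check and which the cyclin E kinase releases. In bulk RNA, fewer cells in S phase and less mRNA per cell cannot be told apart.

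Most replication genes were lower with Dox in both constructs, by modest amounts. With ish, 29 of the 34 fell and 2 rose, where 39.5% of all tested genes fell and 39.1% rose (adjusted p under 0.05, edgeR). With ish2, 32 of the 34 fell and none rose, where 31.1% of all tested genes fell and 33.9% rose. In both constructs 27 of the 34 fell, where 14.1% of all tested genes did. A fall that also reached 25% (the no-Dox level at least 25% above the Dox level) was seen for 17 in ish, beside 28.4% of all tested genes, and for 28 in ish2, beside 17.0%. It was reached in both constructs by 13, beside 5.95%. At 1.5-fold the counts were 9 in ish, beside 19.9%, and 12 in ish2, beside 7.65%. The ish2 counts at 25% and 1.5-fold, and those in both constructs, were not repeated without ish2 no-Dox replicate 3.

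Below, a change given with no unit is a log2 fold change, Dox over no Dox. A Dox effect described as lower has the lower log2 fold change, so of 2 falls it is the larger. The median log2 fold change of the 34 genes was -0.33 in ish and -0.47 in ish2, beside -0.0078 and 0.013 over all tested genes. Without ish2 no-Dox replicate 3 the ish2 median was -0.40 and the count of genes that fell was again 32. Summed over the 34 genes, the level was 2371 ± 36.4 CPM in ish cells with Dox and 3126 ± 87.8 CPM in ish cells without Dox (SD, n = 3 each). In ish2 it was 2655 ± 137 CPM with Dox and 3660 ± 292 CPM without Dox. The Dox and no-Dox libraries were fully separated, with Dox lower, for 30 genes in ish (40.6% of all tested genes) and 32 in ish2 (31.9%). In ish, 2 more were fully separated with Dox higher (40.0% of all tested genes).

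**Figure D1:**
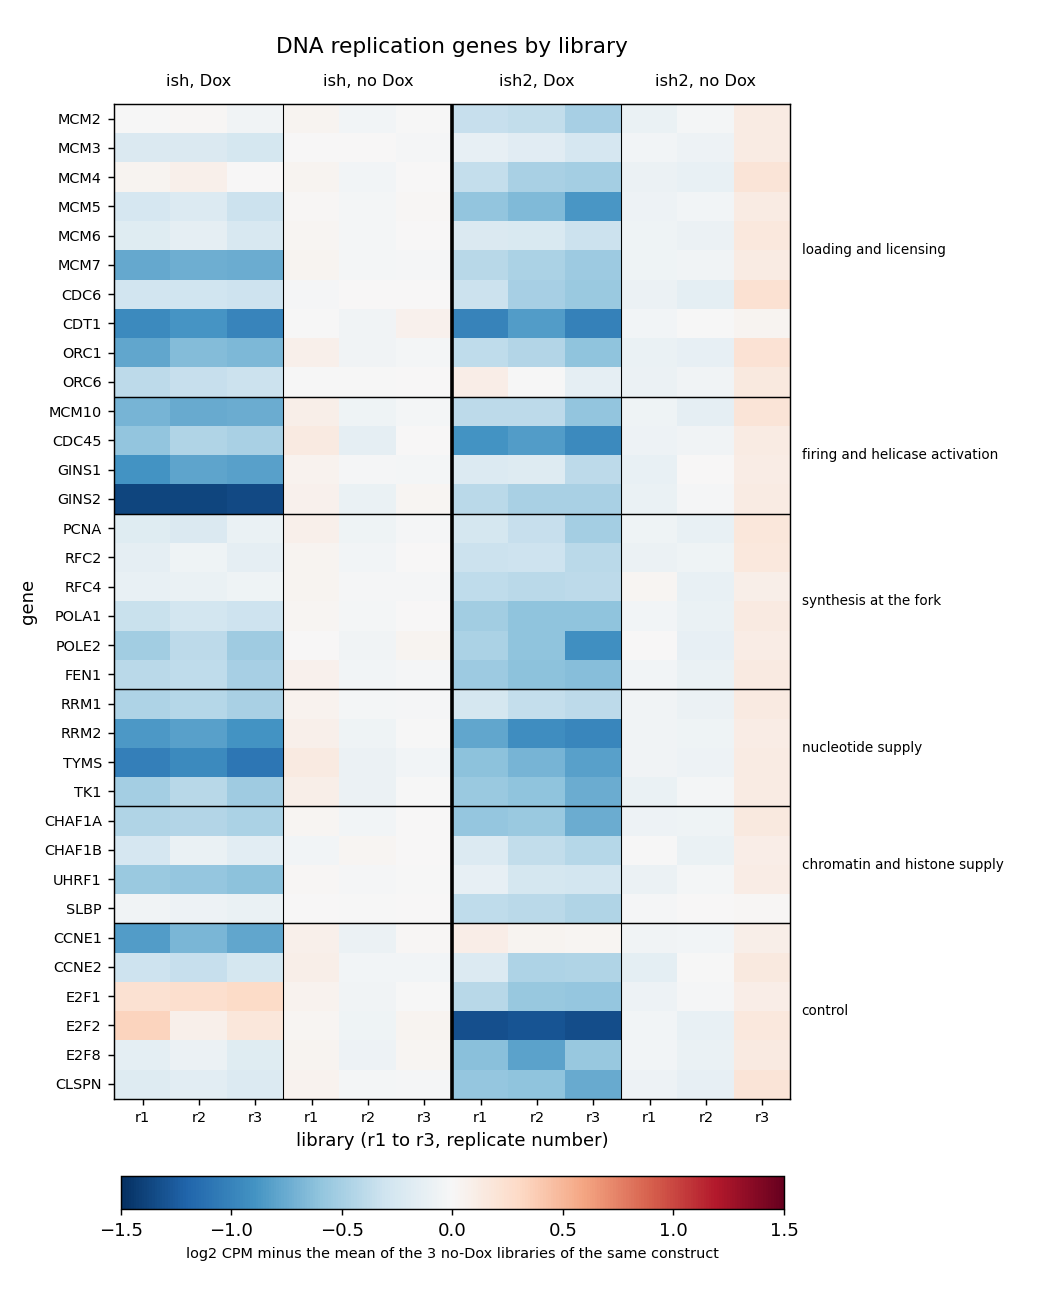
Colour shows log2 CPM of each of the 34 genes (rows, grouped by role) in each of the 12 libraries (columns), minus the mean of the 3 no-Dox libraries of the same construct. Blue fills most of the Dox columns of both constructs, GINS2 in ish and E2F2 in ish2 are the darkest, and replicate 3 of ish2 without Dox is pale red throughout.

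Promoters of these genes were searched for short words that E2F factors are known to bind. The RefSeq promoter table for GRCh38.p14 held 30 of the 34 genes, all but MCM4, MCM5, CCNE2 and E2F8. The 250 bases before the start were read on both strands for TTTCCCGC, TTTCGCGC, TTTGCCGC and TTTGGCGC. At least 1 of these E2F words stood in 11 of the 30 promoters (36.7%), against 2.79% of all 35114 promoters in the table. The CCAAT word, known as the box bound by NF-Y, stood in 18 of 30 (60.0%, against 32.0% of all), and TTTGAA or TTCGAA, the CHR words of G2 and M phase genes, stood in 2 (6.67%, against 14.3%). The 11 genes with an E2F word had a median log2 fold change of -0.31 in ish and -0.48 in ish2, and the 19 without one had -0.46 in ish and -0.47 in ish2. A match is only a run of letters and shows no binding. The shares are set beside all promoters in the table, which were not matched for base composition. In the 30 promoters, G and C made up from 55.6% (MCM3) to 81.2% (CCNE1) of the 250 bases. Only these exact words were searched, so a promoter counted as without one may still hold another form of E2F site. The stretches printed here are the 120 bases before the start, 5′ to 3′ on the gene's strand, with E2F words in capitals. They were chosen to show 3 genes that fell in both constructs and hold an E2F word (GINS2, CDT1, TYMS), and an overlapping pair of words in MCM6. MCM6 holds 4 words in all, and the others lie further upstream, outside the printed stretch. Both E2F genes among the 34 whose response turned between constructs are also printed, as is CCNE1, which has none of the words searched. RRM2 and CDC45 also fell in both constructs but hold none of these words, and they are not printed.
GINS2: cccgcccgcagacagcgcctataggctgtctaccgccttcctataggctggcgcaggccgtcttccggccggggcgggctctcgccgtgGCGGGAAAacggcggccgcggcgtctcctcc
CDT1: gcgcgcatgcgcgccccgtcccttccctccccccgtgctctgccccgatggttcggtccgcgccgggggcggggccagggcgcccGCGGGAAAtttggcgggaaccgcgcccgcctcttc
TYMS: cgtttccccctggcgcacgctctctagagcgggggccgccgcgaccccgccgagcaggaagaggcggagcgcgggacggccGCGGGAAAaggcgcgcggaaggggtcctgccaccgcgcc
MCM6: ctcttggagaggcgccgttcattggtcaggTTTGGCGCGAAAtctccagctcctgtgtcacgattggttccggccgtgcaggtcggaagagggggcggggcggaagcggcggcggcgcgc
E2F1: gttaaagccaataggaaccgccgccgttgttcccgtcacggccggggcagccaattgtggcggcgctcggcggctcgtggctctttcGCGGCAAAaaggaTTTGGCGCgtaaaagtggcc
E2F2: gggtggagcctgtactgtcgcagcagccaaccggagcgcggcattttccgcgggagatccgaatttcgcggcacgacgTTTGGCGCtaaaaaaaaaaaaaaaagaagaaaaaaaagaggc
CCNE1: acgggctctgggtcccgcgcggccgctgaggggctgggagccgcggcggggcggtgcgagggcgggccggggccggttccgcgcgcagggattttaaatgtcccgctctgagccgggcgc
These lie at chr16:85688955-85689074 (- strand), chr16:88803669-88803788 (+ strand), chr18:657533-657652 (+ strand), chr2:135876444-135876563 (- strand), chr20:33686386-33686505 (- strand), chr1:23531234-23531353 (- strand) and chr19:29811871-29811990 (+ strand). GINS2, CDT1 and TYMS hold the same word, TTTCCCGC read on the other strand, starting 31, 35 and 39 bases before the start. TTTCCCGC also stands in MCM7, PCNA and UHRF1 on the other strand and in MCM3 on the gene's strand. Of these, the PCNA change in ish was not called. E2F1 and E2F2 both hold TTTGGCGC, 20 and 42 bases before the start. MCM6 and POLA1, which fell in both constructs, hold TTTGGCGC as well.

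Among the 10 genes of loading and licensing, 8 fell in ish and 9 in ish2, with medians of -0.28 and -0.46. For this role and those below, the share of all tested genes that fell was 39.5% in ish and 31.1% in ish2. CDT1, the factor that brings the MCM ring to origins, fell in both constructs. It measured 22.4, 23.6 and 21.9 CPM in ish cells with Dox, against 43.3, 41.7 and 45.3 CPM in ish cells without Dox (log2 fold change -0.94, SE 0.048, adjusted p = 1.48e-19). In ish2 it measured 22.2, 25.0 and 22.0 CPM in ish2 cells with Dox, against 43.2, 44.6 and 45.9 CPM in ish2 cells without Dox (log2 fold change -0.95, SE 0.049, adjusted p = 7.95e-19). The Dox and no-Dox libraries did not overlap in either construct, and the effects differed by -0.014 (SE 0.069), which was not called (adjusted p = 0.865).

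The 6 subunits of the MCM ring did not move together in ish. MCM7 fell most, to 279, 286 and 283 CPM in ish with Dox, against 489.8, 466 and 468 CPM in ish without Dox (log2 fold change -0.75, SE 0.045, adjusted p = 7.86e-10). MCM2 instead measured 185, 188 and 179 CPM in ish cells with Dox, against 191, 181 and 185 CPM in ish cells without Dox, and MCM4 measured 175, 179.9 and 171 CPM in ish cells with Dox, against 175, 166 and 171 CPM in ish cells without Dox. The libraries of MCM2 and MCM4 overlapped between the ish groups, and neither was called (log2 fold changes -0.013 and 0.037, adjusted p = 0.837 and 0.681). MCM3, MCM5 and MCM6 fell by 0.23, 0.26 and 0.18 on the log2 scale.

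In ish2 all 6 MCM ring genes fell. The largest fall was that of MCM5, to 83.2, 79.2 and 68.9 CPM in ish2 with Dox, against 119, 122 and 137 CPM in ish2 without Dox (log2 fold change -0.71, SE 0.073, adjusted p = 1.17e-05). MCM7 (-0.48), MCM4 (-0.45), MCM2 (-0.41), MCM6 (-0.26) and MCM3 (-0.19) followed. The Dox effect was lower in ish2 than in ish for MCM2 (difference -0.40, SE 0.079, adjusted p = 0.000794), MCM4 (difference -0.49, adjusted p = 0.00336) and MCM5 (difference -0.45, adjusted p = 0.00279). It was higher in ish2 than in ish for MCM7 (difference 0.27, adjusted p = 0.00162).

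ORC1, the largest subunit of the origin recognition complex, fell to 20.7, 22.6 and 22.4 CPM in ish with Dox, against 37.5, 34.5 and 34.9 CPM in ish without Dox (-0.70), and by 0.48 in ish2. ORC6, its smallest subunit, fell in ish (-0.36), whereas in ish2 it measured 52.8, 49.0 and 45.0 CPM in ish2 cells with Dox, against 46.4, 47.5 and 54.4 CPM in ish2 cells without Dox. These ish2 libraries of ORC6 overlapped and the change was not called (-0.017, adjusted p = 0.803); the difference between constructs was 0.34 (adjusted p = 0.000517). CDC6, the ATPase that loads the ring with CDT1, fell in both (-0.30 in ish and -0.47 in ish2).

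All 4 genes of firing and helicase activation fell in both constructs, and as a group they had the lowest median of the 6 roles in ish (-0.78; -0.47 in ish2). GINS2, a subunit of the GINS complex in the moving helicase, measured 22.1, 22.0 and 22.3 CPM in ish cells with Dox, against 60.0, 53.2 and 58.5 CPM in ish cells without Dox (log2 fold change -1.37, SE 0.053, adjusted p = 3.38e-19). That is a 2.59-fold fall, and 5.85% of all tested genes had a lower log2 fold change. In ish2, GINS2 measured 49.6, 46.9 and 46.7 CPM in ish2 cells with Dox, against 61.2, 64.8 and 71.2 CPM in ish2 cells without Dox (log2 fold change -0.46, SE 0.048, adjusted p = 2.09e-09), so its groups did not overlap there either, and the fall was smaller than in ish (difference 0.91, SE 0.072, adjusted p = 5.52e-12).

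GINS1, another subunit of that complex, also fell by more in ish, by 0.83 there and by 0.27 in ish2 (difference 0.57, SE 0.079, adjusted p = 3.64e-06). MCM10, which helps the helicase start, fell by 0.73 in ish and by 0.47 in ish2. CDC45, the helicase cofactor, went the other way in size. It measured 24.8, 27.2 and 26.7 CPM in ish cells with Dox, against 40.9, 33.8 and 37.3 CPM in ish cells without Dox (-0.51), and 26.5, 27.4 and 25.4 CPM in ish2 cells with Dox, against 46.7, 47.6 and 53.7 CPM in ish2 cells without Dox (-0.90). The CDC45 fall was larger in ish2 than in ish (difference -0.39, SE 0.092, adjusted p = 0.00074).

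Of the 6 genes of synthesis at the fork, 5 fell in ish (median -0.24) and 6 in ish2 (median -0.49), and for 4 of them the Dox effect was lower in ish2 than in ish, as it was for 35.2% of all tested genes. POLE2, an accessory subunit of the leading-strand polymerase epsilon, fell by 0.48 in ish and by 0.67 in ish2, and FEN1, the nuclease that trims Okazaki flaps, by 0.43 in ish and by 0.60 in ish2. POLA1, the catalytic subunit of the priming polymerase alpha, measured 53.1, 50.3 and 50.2 CPM in ish2 cells with Dox, against 74.3, 71.1 and 83.7 CPM in ish2 cells without Dox (log2 fold change -0.58, SE 0.044, adjusted p = 8.7e-13). In ish it fell by 0.31, and the difference was -0.27 (adjusted p = 0.000245).

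PCNA, the sliding clamp, measured 74.6, 72.7 and 78.8 CPM in ish cells with Dox, against 89.1, 81.0 and 83.7 CPM in ish cells without Dox. These groups did not overlap, yet the change was not called in the fit that shares its spread over all 12 libraries (log2 fold change -0.16, SE 0.087, adjusted p = 0.112). Fitted from the 6 ish libraries alone it was called (adjusted p = 2.19e-05), as it was without ish2 no-Dox replicate 3 (adjusted p = 0.0102). With limma-voom on all 12 libraries it was called too (adjusted p = 0.0114). Over the alternatives the adjusted p ran from 2.19e-05 to 0.247. In ish2 PCNA fell by 0.38. RFC2 and RFC4, subunits of the clamp loader, changed by -0.11 and -0.093 in ish and by -0.35 and -0.40 in ish2. The ish call of RFC2 did not hold when ish Dox replicate 1 or 3 or ish no-Dox replicate 1 or 3 was left out (adjusted p = 0.0613 to 0.118), nor under RLE factors, DESeq2 or the replicate block (adjusted p = 0.0771, 0.0836 and 0.0704). That of RFC4 did not hold when ish Dox replicate 1 or 2 or ish no-Dox replicate 1 was left out (adjusted p = 0.0682 to 0.111), nor under RLE factors or DESeq2 (adjusted p = 0.0716 and 0.13).

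The 4 genes of nucleotide supply fell in both constructs, with medians of -0.67 in ish and -0.68 in ish2. RRM2, the regulated small subunit of ribonucleotide reductase, measured 131, 135 and 128 CPM in ish cells with Dox, against 251, 228 and 237 CPM in ish cells without Dox (log2 fold change -0.86, SE 0.064, adjusted p = 4.54e-07). In ish2 RRM2 measured 178, 160.5 and 156 CPM in ish2 cells with Dox, against 295, 293 and 329.7 CPM in ish2 cells without Dox (log2 fold change -0.89, SE 0.063, adjusted p = 4.8e-07). RRM2 was clearly separated between groups in both, and the effects differed by -0.033 (SE 0.090, adjusted p = 0.759). TYMS, the enzyme that makes thymidylate, fell to 18.2, 19.1 and 17.6 CPM in ish with Dox, against 40.8, 35.1 and 36.1 CPM in ish without Dox (log2 fold change -1.03, SE 0.067, adjusted p = 4.91e-12), and by 0.72 in ish2. TK1, the thymidine kinase of the salvage route, fell by 0.49 in ish and by 0.64 in ish2, and RRM1, the large reductase subunit, by 0.46 in ish and by 0.34 in ish2. CDT1, RRM2 and TYMS were the 3 of the 34 that fell at least 1.5-fold in both constructs, as 2.12% of all tested genes did.

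Some of these genes share exon bases with a neighbour, and whether the counting used strand was not stated in the sources used here. ENOSF1, on the other strand, covers 39.2% of the exon length of TYMS and changed by -0.17 in ish and -0.27 in ish2. INTS8 covers 37.1% of CCNE2 on the other strand and changed by 0.57 in ish; its change in ish2, -0.051, was not called (adjusted p = 0.306). AC023593.1 covers 22.7% of MCM2 on the other strand and AC007240.1 covers 20.2% of RRM2 on the same strand, and neither is listed in the count table. PCNA, RRM2, TYMS and FEN1 also have annotated pseudogenes, and their counts are uncertain to that extent.

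Among the 4 genes of chromatin and histone supply, all fell in both constructs. UHRF1, which brings DNA methylation to new strands, fell to 176, 172 and 169 CPM in ish with Dox, against 262, 254 and 258 CPM in ish without Dox (log2 fold change -0.58, SE 0.050, adjusted p = 8.81e-08), and less in ish2 (-0.22; difference 0.36, SE 0.070, adjusted p = 0.000364). SLBP, which binds the stem-loop of histone mRNAs, showed the reverse. It measured 70.3, 69.0 and 66.8 CPM in ish2 cells with Dox, against 90.3, 91.7 and 92.7 CPM in ish2 cells without Dox (log2 fold change -0.41, SE 0.031, adjusted p = 3.74e-14), whereas in ish it fell by 0.078, a call that did not hold with ish Dox replicate 3 left out (adjusted p = 0.0712) or with DESeq2 (adjusted p = 0.0909). CHAF1A and CHAF1B, subunits of the assembly factor that places histones on new DNA, fell by 0.46 and 0.17 in ish and by 0.63 and 0.34 in ish2. The ish call of CHAF1B did not hold with ish Dox replicate 1 left out (adjusted p = 0.0548).

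**Figure D2:**
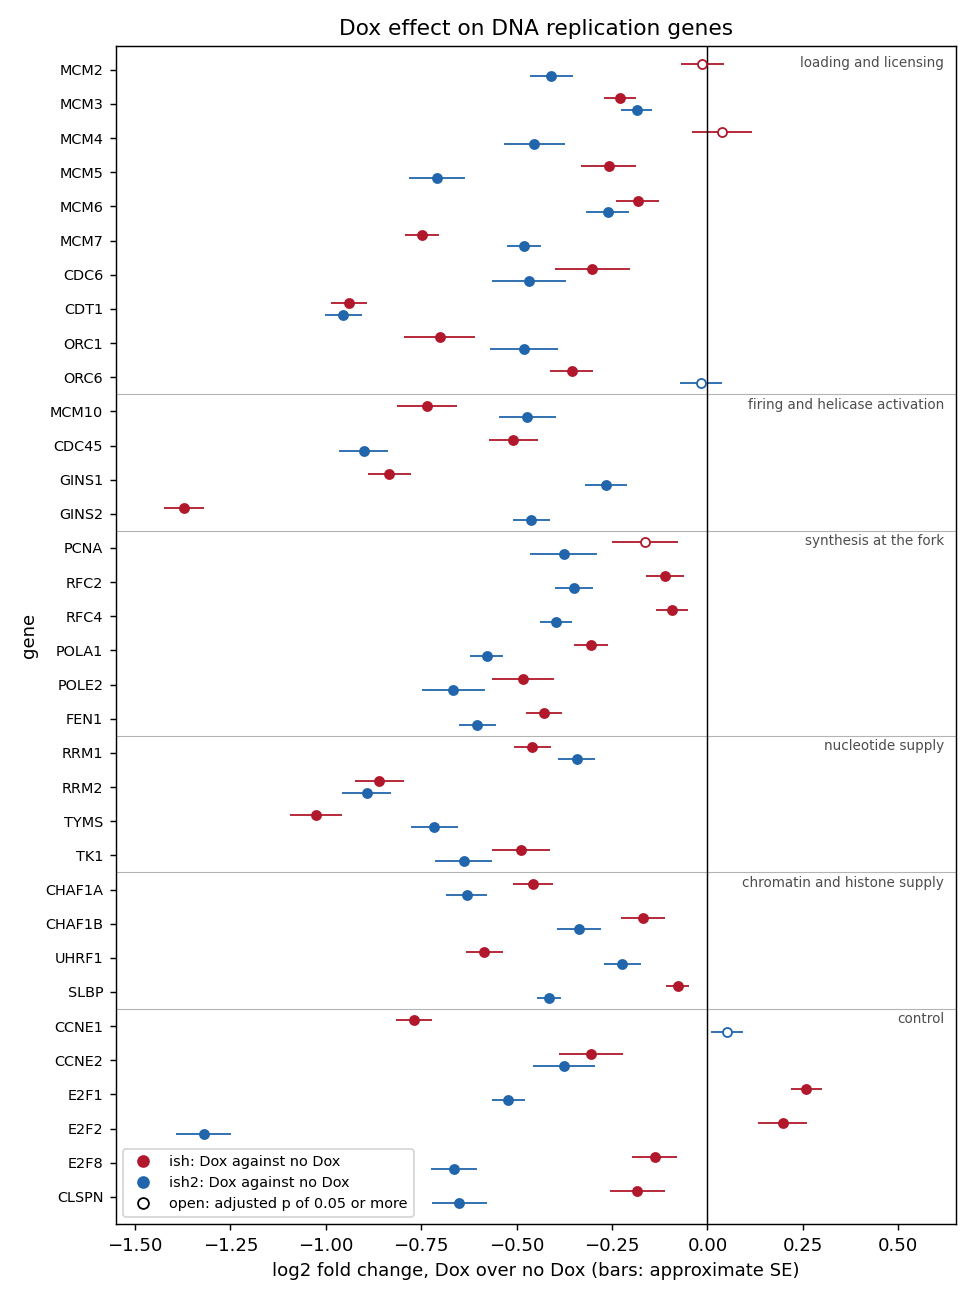
Points show the log2 fold change of each gene, Dox over no Dox, in ish (red) and ish2 (blue), with bars for the approximate SE and open points for genes that were not called. CDT1 and RRM2 have overlapping points, GINS2 lies lowest in ish at -1.37 and E2F2 lowest in ish2 at -1.32.

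Of the 6 genes of control, 4 fell and 2 rose in ish (median -0.16), and 5 fell and none rose in ish2 (median -0.59). The Dox effect differed between the constructs for 5 of the 6, and for 72.6% of all tested genes. E2F1, an activating E2F factor, measured 88.9, 90.4 and 92.4 CPM in ish cells with Dox, against 78.5, 73.3 and 75.4 CPM in ish cells without Dox (log2 fold change 0.26, SE 0.041, adjusted p = 2.64e-06). In ish2 it measured 63.9, 57.8 and 56.9 CPM in ish2 cells with Dox, against 80.8, 84.2 and 91.4 CPM in ish2 cells without Dox (log2 fold change -0.52, SE 0.044, adjusted p = 5.26e-11). E2F1 was thus higher in all 3 Dox libraries of ish and lower in all 3 of ish2, and the effects differed (difference -0.78, SE 0.060, adjusted p = 5.42e-12).

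E2F2, a relative of E2F1 that also activates S phase genes, had the largest difference between constructs of the 34 genes. It measured 33.4, 27.9 and 29.9 CPM in ish cells with Dox, against 27.1, 25.3 and 27.2 CPM in ish cells without Dox (log2 fold change 0.20, SE 0.064, adjusted p = 0.00826). In ish2 it measured 14.3, 14.6 and 14.3 CPM in ish2 cells with Dox, against 34.7, 33.0 and 39.9 CPM in ish2 cells without Dox (log2 fold change -1.32, SE 0.072, adjusted p = 2.11e-13), a 2.50-fold fall; 1.10% of all tested genes had a lower log2 fold change. The effects differed (difference -1.52, SE 0.10, adjusted p = 2.1e-12), although the rise in ish was not called without ish Dox replicate 1 (log2 fold change 0.12, adjusted p = 0.0782; range over the alternatives 0.000145 to 0.0782).

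CCNE1, which encodes cyclin E1, the partner of CDK2 at the start of S phase, was lower with Dox in ish. It measured 29.7, 33.0 and 30.9 CPM in ish cells with Dox, against 55.8, 49.9 and 53.8 CPM in ish cells without Dox (log2 fold change -0.77, SE 0.046, adjusted p = 2.4e-16). In ish2 it measured 65.7, 63.2 and 62.5 CPM in ish2 cells with Dox, against 59.3, 60.0 and 65.4 CPM in ish2 cells without Dox. These ish2 groups of CCNE1 overlapped and the change was not called (0.051, adjusted p = 0.296), and the effects differed (difference 0.82, SE 0.063, adjusted p = 1.71e-13). CCNE2, the other cyclin E, fell in both (-0.30 in ish and -0.37 in ish2), with no called difference (-0.070, adjusted p = 0.601).

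E2F8, a repressor of the same family, and CLSPN, the fork protein claspin, fell by 0.66 and 0.65 in ish2. In ish their falls were 0.14 and 0.18. The ish call of E2F8 did not hold when ish Dox replicate 1 or 3 or ish no-Dox replicate 1 or 3 was left out (adjusted p = 0.0652 to 0.107), nor under RLE factors or DESeq2 (adjusted p = 0.0533 and 0.103). That of CLSPN did not hold when any 1 of the ish Dox libraries or ish no-Dox replicate 1 was left out (adjusted p = 0.0534 to 0.0869), nor under the replicate block (adjusted p = 0.062). Upstream of the E2F factors, CDKN1A, which encodes the kinase inhibitor p21, measured 461, 457 and 451 CPM in ish cells with Dox, against 115, 98.1 and 105 CPM in ish cells without Dox (2.11). In ish2 CDKN1A measured 186, 188 and 200.5 CPM in ish2 cells with Dox, against 138, 144 and 122 CPM in ish2 cells without Dox (0.51, adjusted p = 9.15e-05). RB1, the retinoblastoma gene, rose by 0.32 in ish, and its change of 0.076 in ish2 was not called (adjusted p = 0.0944). Their part in the results above was not tested.

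**Figure D3:**
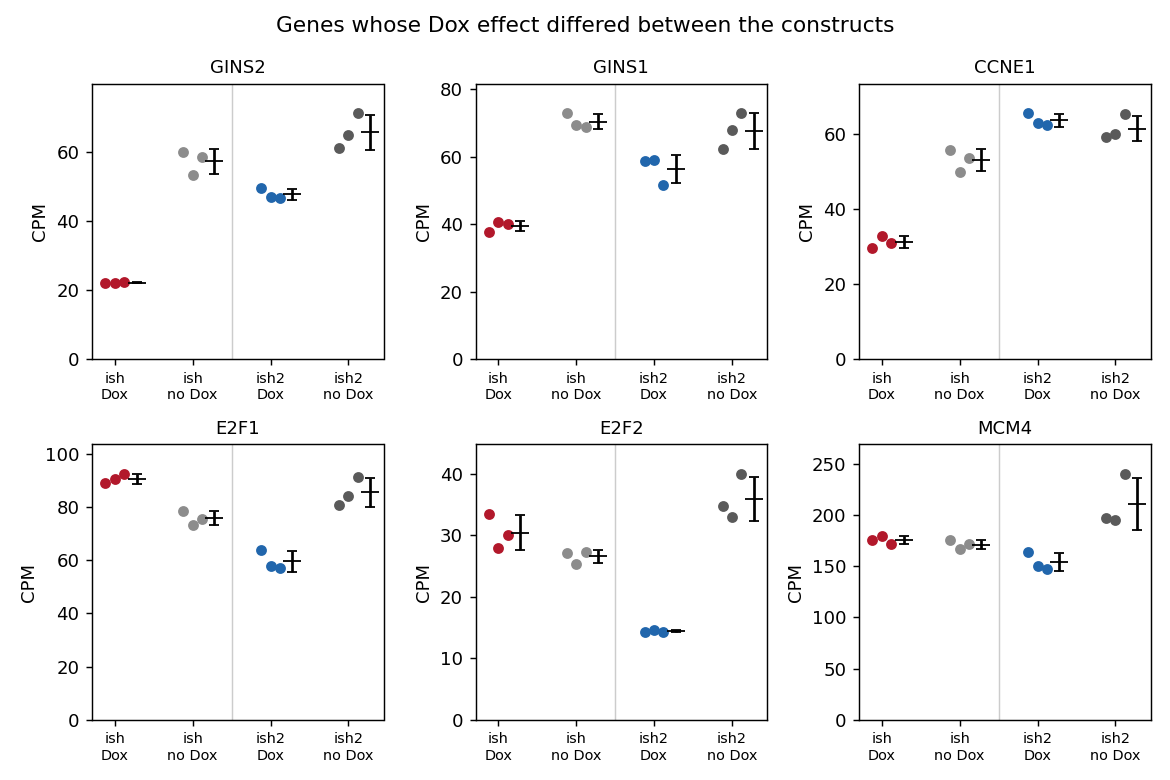
Points show CPM in each library of 6 genes whose Dox effect differed between the constructs, with the mean and SD (n = 3) beside each group; all axes start at 0. GINS2, GINS1 and CCNE1 are lower with Dox in ish by more than in ish2, where the CCNE1 groups overlap; E2F1 and E2F2 are higher with Dox in ish and lower with Dox in ish2, and MCM4 is lower with Dox in ish2, with overlapping ish groups.

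Over the 34 genes, the Dox effect differed between the constructs in 22, with 14 effects lower in ish2 and 8 higher in ish2, where 35.2% of all tested genes were lower and 37.4% higher. The 22 are a smaller share of the 34 than the 72.6% of all tested genes whose effect differed. Without ish2 no-Dox replicate 3 the counts were 12 lower and 11 higher. The median difference was -0.17, and -0.097 without ish2 no-Dox replicate 3, beside 0.0094 over all tested genes. The 14 with a lower effect in ish2 were MCM2, MCM4, MCM5, CDC45, RFC2, RFC4, POLA1, FEN1, CHAF1A, SLBP, E2F1, E2F2, E2F8 and CLSPN. The 8 with a higher effect in ish2 were MCM7, ORC6, MCM10, GINS1, GINS2, TYMS, UHRF1 and CCNE1. Higher means a higher log2 fold change, so these 8 fell less in ish2 than in ish, or were not called in ish2 (ORC6 and CCNE1). The call of MCM10 was lost in 8 of the 12 fits that each left out 1 library (adjusted p = 0.0539 to 0.0864, all but those without ish no-Dox replicate 2 or 3, ish2 Dox replicate 3 or ish2 no-Dox replicate 3), and under RLE factors (adjusted p = 0.0501). That of CHAF1A was lost in 8 (adjusted p = 0.0505 to 0.105, all but those without ish2 Dox replicate 1 or 2 or ish2 no-Dox replicate 1 or 2), with library size alone (adjusted p = 0.0682) and under the replicate block (adjusted p = 0.0893). FEN1 lost its call in 4 (adjusted p = 0.0503 to 0.0858), without ish Dox replicate 2, ish no-Dox replicate 2, ish2 Dox replicate 3 or ish2 no-Dox replicate 3.

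In the cultures grown without Dox, most replication genes were higher in ish2 than in ish. Of the 34, 26 were higher and none lower in ish2 without Dox, where 13.7% of all tested genes were higher and 12.4% lower. The median log2 fold change was 0.22, beside -0.0038 over all tested genes, and 5 genes were called and at least 25% higher (1.43% of all tested genes). Without ish2 no-Dox replicate 3, 22 were higher, the median was 0.15, and 3 genes (E2F2, CDC45 and TK1) were at least 25% higher. This comparison uses the same no-Dox libraries as the Dox effects, so the 2 cannot be read as separate evidence.

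These 5 genes, with their log2 fold changes of ish2 over ish, were E2F2 (0.44), CDC45 (0.40), TK1 (0.39), RRM2 (0.36) and CLSPN (0.34). Without ish2 no-Dox replicate 3 RRM2 was at 0.30 and CLSPN at 0.24. The count at 25% was 9 without ish2 no-Dox replicate 1 and 10 without replicate 2. TK1 measured 146, 155 and 172 CPM in ish2 without Dox, against 127, 113 and 119.6 CPM in ish without Dox. For 28 genes all 3 ish2 libraries lay above all 3 ish libraries, as for 19.5% of all tested genes. GINS1 (-0.054, adjusted p = 0.508) and CDT1 (0.038, adjusted p = 0.567) were among the 8 not called. Of the 26 calls, 8 were lost when 1 library was left out. Leaving out ish no-Dox replicate 2 lost MCM2, MCM3, MCM4, MCM5, POLE2 and FEN1, replicate 3 lost MCM3, MCM4 and FEN1, and replicate 1 lost POLE2. Leaving out ish2 no-Dox replicate 3 lost MCM3, ORC6, POLE2, FEN1 and CHAF1B, and replicate 1 lost POLE2.

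**Figure D4:**
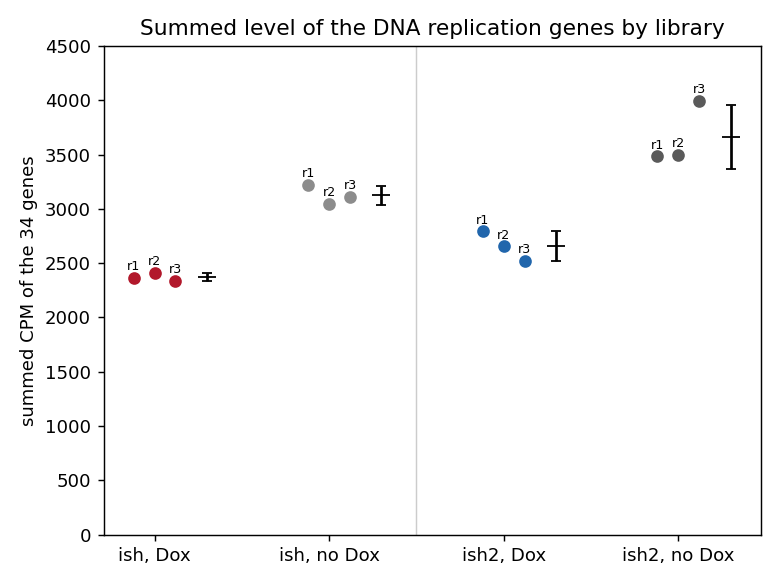
Points show the CPM summed over the 34 genes in each library, labelled by replicate number, with the mean and SD (n = 3) beside each group. Both Dox groups lie below their own no-Dox group, and ish2 without Dox reaches 3997 CPM in replicate 3, against 3486 and 3497 CPM in replicates 1 and 2.

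Compared per exon length, MCM7 was the most abundant of the 34 genes in every group, at 64.4 ± 0.846 RPKM in ish with Dox and 108 ± 3.01 RPKM in ish without Dox, and at 92.0 ± 4.10 RPKM in ish2 with Dox and 128 ± 9.47 RPKM in ish2 without Dox (CPM per kilobase of GENCODE exons, SD, n = 3 each). PCNA and TK1 came next in each group. In ish with Dox, PCNA at 51.3 ± 2.13 RPKM stood above TK1 at 45.9 ± 2.08 RPKM, whereas TK1 stood above PCNA in the other 3 groups. In ish2 with Dox the SDs of TK1 and PCNA overlapped (54.4 ± 3.73 and 50.7 ± 4.26 RPKM). CCNE2 was the least abundant in every group, at 1.70 ± 0.0509 RPKM in ish with Dox and 2.11 ± 0.106 RPKM in ish without Dox. The MCM ring genes ran from 14.1 ± 0.276 RPKM for MCM5 to 108 ± 3.01 RPKM for MCM7 in ish without Dox. The length used is the union of all annotated exons, 7338 bases for MCM5 against 4118 for MCM6 and 4386 for MCM7. Ranks between genes therefore depend on the annotation, and the transcripts in use were not examined.

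Further genes of the replication machinery were also mostly lower with Dox. Of 51 such genes, none of them among the 34, 41 fell and 6 rose in ish (median -0.37), and 38 fell and 7 rose in ish2 (median -0.27), against the shares of all tested genes given above. Without ish2 no-Dox replicate 3, 36 fell and 6 rose in ish2. In ish the largest falls were those of RPA3, a subunit of the single-strand binding protein (-1.30), PRIM1, the catalytic subunit of primase (-0.996), and CCNA2, cyclin A2 (-0.96). The largest rises were those of MCM9, a helicase related to the ring genes (0.65), POLE4, a small subunit of polymerase epsilon (0.57), and POLD2, a subunit of polymerase delta (0.38). In ish2 POLD3, another subunit of polymerase delta (-0.94), LIG1, the ligase that joins Okazaki fragments (-0.75), and TICRR, an origin firing factor (-0.68), fell most. POLE4 (0.53), RPA2, another subunit of the single-strand binding protein (0.28), and TIPIN, a partner of claspin at the fork (0.26), rose most.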

How the data were processed

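The authors deposited raw counts per gene symbol for 12 libraries, with no normalization. Per the labels' protocols, stranded mRNA libraries were made, and the tools listed in the submitters' processing notes are STAR 2.7.3a, Subread 1.6.3, featureCounts and Trim Galore 0.6.4, with the build GRCh38 and no roles; the gene annotation was not stated in the sources used here. Column headers name the hairpins Sh1 and Sh2; Sh1 was taken as ish, the only other construct being ish2. The 5 special rows (21.0% to 24.4% of reads) stayed out of library sizes and fits.

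Genes were filtered with filterByExpr by group (15206 of 26485 kept) and scaled by TMM. One edgeR 4.0.16 quasi-likelihood fit of 4 group means (robust, R 4.3.3) gave the Dox effect in each construct, the difference between both effects (ish2 minus ish), and the no-Dox comparison of ish2 with ish, with Benjamini-Hochberg adjustment over all tested genes and a threshold of 0.05. SE is the absolute log2 fold change over the square root of F, an approximation. Alternatives used limma 3.58.1 and DESeq2 1.42.0. No library was a copy of another (chi-square per degree of freedom at least 1.34).

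Members, roles, other lists and the rule for named genes were chosen with earlier results of these data known. All 34 members are named, as are the 3 largest called falls and rises per construct among the other replication genes. Exon lengths are from GENCODE 29, promoters from RefSeq; a GENCODE start lay in the promoter window for 27 of 30 members.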

Additional observations from a re-analysis of the deposited data

Results flagged for a closer look

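For 22 of the 34 replication genes the Dox effect differed between the constructs by a test of the difference itself (edgeR, adjusted p from 1.71e-13 for CCNE1 to 0.0494 for CHAF1A), a smaller share than the 72.6% of all tested genes for which it differed. On the log2 scale, as the ish2 effect minus the ish effect, the positive differences were 0.91 for GINS2, 0.82 for CCNE1, 0.57 for GINS1, 0.36 for UHRF1, 0.34 for ORC6, 0.31 for TYMS, 0.27 for MCM7 and 0.26 for MCM10. The negative differences were -1.52 for E2F2, -0.78 for E2F1, -0.53 for E2F8, -0.49 for MCM4, -0.47 for CLSPN, -0.45 for MCM5, -0.40 for MCM2, -0.39 for CDC45, -0.34 for SLBP, -0.30 for RFC4, -0.27 for POLA1, -0.24 for RFC2, -0.17 for FEN1 and -0.17 for CHAF1A. In 4 of the 22, the effects had opposite signs: E2F1 and E2F2, which were called in both constructs, and MCM4 and CCNE1, which were called in 1 construct each.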

How the results depend on the processing

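Over 20 alternatives (19 for the last 2 comparisons) that changed scaling, tool, filter, block or libraries, 24 of 31 calls among the replication genes held throughout in ish, 32 of 32 in ish2, 19 of 22 for the difference and 18 of 26 without Dox. Leaving out 1 library gave 24 to 30 lower and 1 to 2 higher in ish. A further demand of a 25% gap left 17 lower and 0 higher in ish, 9 lower and 5 higher for the difference, and 5 higher without Dox (3 to 10 with 1 library left out, chosen after seeing the data); at least 1.5-fold left 9 and 0 in ish, 12 lower in ish2, 2 lower and 2 higher for the difference, and 0 without Dox. Signs turned only for values near 0 that were not called in the reported fit. Over all the alternatives these ran from -0.038 to 0.0033 for MCM2 in ish, -0.088 to 0.044 for ORC6 in ish2 and -0.11 to 0.00042 for GINS1 without Dox. For the difference they ran from -0.0025 to 0.099 for MCM3 (called without ish2 no-Dox replicate 3), -0.16 to 0.0040 for CCNE2, -0.096 to 0.018 for RRM2 and -0.080 to 0.014 for CDT1 (0.0081 with library size alone). Libraries with the same replicate number did not deviate together (correlations of -0.0798 to 0.0381); with a replicate block, 27 were lower in ish, 32 in ish2 and 13 in the difference. Scaling moved the median of all genes by at most 0.025. The cause of these changes was not tested, and small changes near the threshold are limited by 3 libraries a group.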

Other observations

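Within 2 complexes of the replication fork, subunits that work together gave unlike changes; these genes were picked after their values were seen. Of polymerase epsilon, POLE, the catalytic subunit, fell by 0.37 in ish and by 0.53 in ish2 on the log2 scale, as POLE2 did, while the small subunit POLE4 rose by 0.57 in ish and by 0.53 in ish2. POLE3, its partner, rose by 0.22 in ish2, and its change of 0.054 in ish was not called (adjusted p = 0.098). Of the single-strand binding protein, RPA1 rose by 0.072 in ish and fell by 0.19 in ish2. RPA2 fell by 0.92 in ish and rose by 0.28 in ish2 (difference 1.20, SE 0.052, adjusted p = 4.46e-20). RPA3 fell by 1.30 in ish and by 0.12 in ish2. E2F3, the other activating E2F gene, fell by 0.83 in ish and rose by 0.090 in ish2 (difference 0.92, SE 0.046, adjusted p = 1.32e-19), the reverse of E2F1 and E2F2.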
